A study of Mus musculus with 27 samples.

Results

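The cytosolic ribosomal protein genes encode the proteins of the large and small subunits of the ribosomes that translate nuclear-encoded messages. They were taken as every gene of the count table whose symbol has the form Rpl, Rps or Rplp followed by a number (with an optional a or x), and whose mean over 27 libraries was at least 1 CPM (a count scaled to the library total). This gave 74 of 22340 genes, 45 of the large subunit and 29 of the small subunit. No gene with such a symbol fell below that limit: the lowest were Rpl18, with a mean of 5.09 CPM, and Rpl12, with 8.25 CPM, and the highest was Rpl3, with 329 CPM. All 74 also passed the filter on low counts that left 18087 genes for testing. Rpsa, Fau, Rps3a1 and Gnb2l1 (Rack1), core ribosomal proteins with other symbols, were set beside them, as were 7 tested paralogs.

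The series addresses how the cortical transcriptome of mice changes over the first day after a transient stroke. All mice were wild-type C57BL6 animals 7 to 8 weeks old. In the stroke groups a nylon suture blocked the middle cerebral artery for 35 min, and ipsilateral cortex (the side of the blocked vessel) and contralateral cortex were taken after 3, 6, 12 or 24 h of reperfusion. Sham mice had the same anaesthesia and exposure of the arteries with no suture. Each of the 9 groups (ipsilateral and contralateral cortex at each of 4 times, and sham cortex) had 3 libraries of ribosomal-RNA-depleted total RNA, one from each of 3 surgery days. The labels do not give the hemisphere or time of the sham cortex, nor say whether both hemispheres came from the same mouse. The tissue was bulk cortex, so fewer cells of a type and less RNA per cell cannot be told apart.

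Libraries held 26505996 to 48830897 counts, of which the 74 genes took 0.463 to 0.881%. Contralateral 3 h replicate 1 stood apart: it had the lowest share, its counts leaned on gene GC content far more than those of any other library (a span of -1.03 log2 units, against at most 0.357 elsewhere), and the next lowest share was 0.682%. Mitochondrial ribosomal RNA took 24.4 to 40.4% of counts, highest in ipsilateral 24 h replicate 1. Summed markers of choroid plexus ranged from 4.45 to 744 CPM and those of striatum from 192 to 708 CPM, both highest in ipsilateral 3 h replicate 1, and the part of these regions in the results was not tested. Neuronal markers summed to 3591 to 5795 CPM and were present in every library.

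Most ribosomal proteins are needed in equal amounts, and cells make them in step. Their messages carry a 5′ terminal oligopyrimidine (TOP) tract, a C followed by a run of C and U at the cap, through which the kinase mTOR and the protein Larp1 set their translation and stability. For that reason much of the control of these genes in stress is on translation, which read counts do not measure. Ribosomal proteins that are not built into subunits, above all Rpl5 and Rpl11, bind and inhibit Mdm2 and so link failed ribosome assembly to p53.

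The sense strand of RefSeq start-site windows (build GRCm38.p6) was available for 54 of the 74 genes. A C followed by at least 4 further C or T letters, beginning within 10 bases of the annotated start on either side, was found for 33 of these 54 (61.1%), against 31.5% of 27025 genes in the same table; no other motif was searched. Each run was counted from its first C, which had to lie in that range, and the longest was kept where a window had several. For a gene with several windows a run in any of them was enough, so both shares depend on the number of annotated starts. The window printed for a gene is the first that held a run. This match is a description of the letters and not proof of a TOP message. The windows below run from 10 bases before the start to 20 bases from it on, with the tract in capitals. They are shown for Rps6 and Rps27 as example members and for Rps27l as the paralog of Rps27. The members that passed the test in both comparisons at 24 h are also shown.
Rps6: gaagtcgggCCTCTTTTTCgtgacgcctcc
Rps27: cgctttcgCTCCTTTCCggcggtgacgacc
Rps27l: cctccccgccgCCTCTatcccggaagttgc
Rpl12: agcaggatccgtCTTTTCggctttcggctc
Rpl18: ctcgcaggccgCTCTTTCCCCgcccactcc
Rps21: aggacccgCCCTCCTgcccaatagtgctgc
These windows are at chr4:86857348-86857377 (minus strand) for Rps6, chr3:90213629-90213658 (minus strand) for Rps27, chr9:66946076-66946105 for Rps27l, chr2:32961702-32961731 for Rpl12, chr7:45718061-45718090 for Rpl18 and chr2:180257369-180257398 for Rps21, the last 4 on the plus strand. The marked tract has 10 letters in Rps6 and Rpl18, 9 in Rps27, 7 in Rps21, 6 in Rpl12 and 5 in Rps27l.

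Per length, the members spanned a wide range of levels in sham cortex, from 1.33 CPM per kb of exon for Rpl18 to 547 CPM per kb for Rplp1, a stalk protein, with a median of 104 CPM per kb. Rpl12, with 5.05 CPM per kb, was the second lowest and Rps21, with 391.6 CPM per kb, the second highest. Almost all members have near-identical copies elsewhere in the genome. In the GENCODE M21 annotation 71 of 74 had at least 1 other gene matching their coding sequence at 95% identity or more over 80% or more of its length, mostly pseudogenes, with a median of 5.5 and up to 57 (Rpl21). Reads that fit both places can be lost or split, so the level of a member against another is uncertain. Exons of 14 members, Rpl12 and Rpl18 among them, overlap a gene on the opposite strand, and whether the counting used strand is not stated in the labels or processing notes. Rpl12 and Rpl18, the lowest members per length, are also the ones called higher over contralateral cortex below. Whether lost reads or reads from the opposite strand bear on their fold changes was not tested.

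The summed level of the 74 genes, in CPM normalized by edgeR's TMM factors (all CPM values from here on), was close in the ipsilateral, contralateral and sham libraries. At 3 h it was 7104, 8387 and 7404 CPM in ipsilateral cortex, against 5477, 7746 and 7517 CPM in contralateral cortex. At 6 h it was 7087, 7237 and 7840 CPM in ipsilateral cortex, against 7942, 7859 and 7869 CPM in contralateral cortex. Only at 6 h did the groups not overlap, with all 3 ipsilateral sums below all 3 contralateral ones. At 12 h it was 7379, 8111 and 7234 CPM in ipsilateral cortex, against 7853, 7721 and 7969 CPM in contralateral cortex. At 24 h it was 7854, 8053 and 6751 CPM in ipsilateral cortex, against 7707, 7949 and 7588 CPM in contralateral cortex. The sham libraries held 8035, 7836 and 7140 CPM. The large subunit genes summed to 1.405 to 1.56 times the small subunit genes in all 27 libraries, the lowest ratio again in contralateral 3 h replicate 1.

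**Figure D1:**
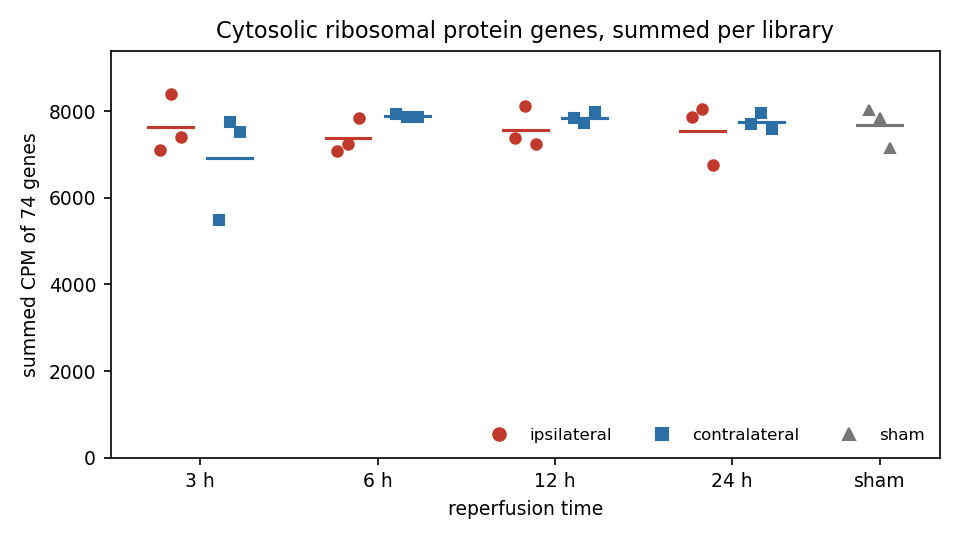
Summed CPM of the 74 cytosolic ribosomal protein genes in each library (points) with group means (bars), by reperfusion time. Sums ran from 6751 to 8387 CPM apart from contralateral 3 h replicate 1, which had 5477 CPM.

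Against contralateral cortex, few members passed the test at any time. At an adjusted p of 0.05 (edgeR's quasi-likelihood test, Benjamini-Hochberg adjustment over all 18087 genes), none of 74 members was called at 3 h, where 0.249% of all genes were called and 3 members had an unadjusted p under 0.05 (DESeq2 called none either). At 6 h 1 member rose, where 7.99% of all genes were called and 5.85% rose. At 12 h 1 member rose, where 12.2% were called and 7.94% rose. At 24 h 2 members rose and 1 fell, where 19.1% of all genes were called, 9.74% rose and 9.36% fell. Rpl12 was the member that rose at 6, 12 and 24 h, joined at 24 h by Rpl18, and Rps21 fell. At 6 h 15 members were lower and 2 higher in all 3 ipsilateral libraries than in all 3 contralateral ones, against 15.9% of all genes lower and 16.9% higher. At 12 h 7 members were lower and 6 higher in this way, against 15.65 and 16.93% of all genes. At 24 h 6 were lower and 4 higher, against 17.62 and 16.82% of all genes.

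The spread of the members was narrow. The median log2 fold change, ipsilateral over contralateral, was 0.16, -0.09, -0.03 and -0.02 at 3, 6, 12 and 24 h, beside 0.00, -0.02, -0.01 and 0.03 over all genes tested. It was above 0 for 68 of 74 members at 3 h and for 9 of 74 at 6 h. The 3 h median was 0.02 without contralateral 3 h replicate 1, whose own low values also gave a median of -0.16 for contralateral over sham at that time. The median standard error of a member was 0.13, so that a member's 95% interval reached about 0.26 on each side. That interval lay within 0.5 log2 units of 0 (1.41-fold) for 55, 65, 68 and 65 members at 3, 6, 12 and 24 h, and within 1 unit for all but Rpl12 from 6 h on.

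**Figure D2:**
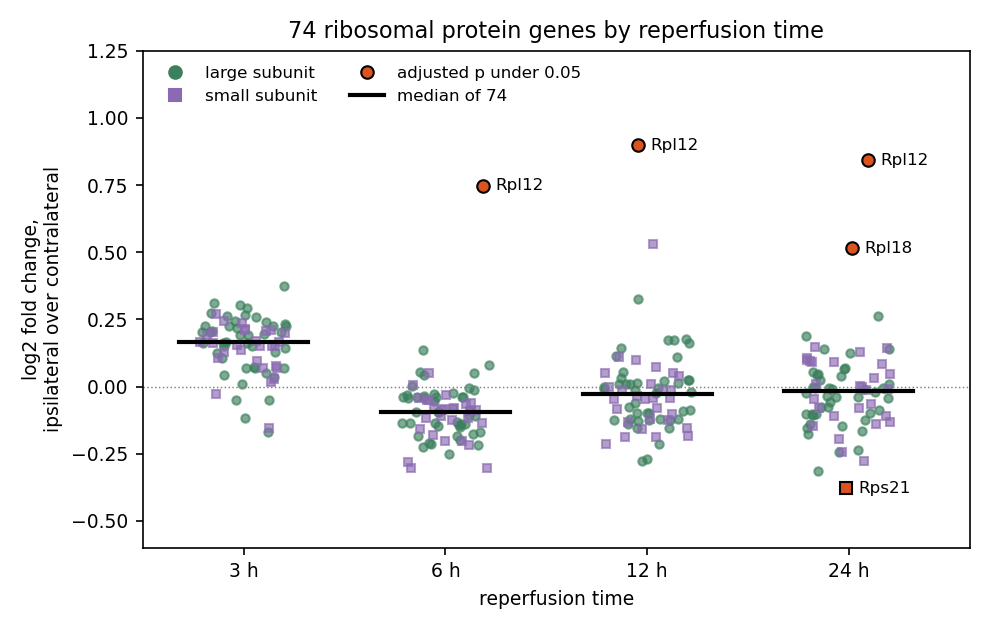
Log2 fold change, ipsilateral over contralateral cortex, of each of the 74 genes (points) by reperfusion time, with the median (bar); filled orange points have an adjusted p under 0.05. Beside Rpl12, Rpl18 at 24 h and Rps16 at 12 h all members lie between -0.4 and 0.4, and the medians are 0.16, -0.09, -0.03 and -0.02.

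Rpl12, a large subunit protein at the base of the stalk that recruits elongation factors, showed the largest change. At 6 h it had 9.57, 13.8 and 11.4 CPM in ipsilateral cortex, against 6.67, 7.67 and 6.37 CPM in contralateral cortex. At 12 h it had 12.0, 9.64 and 12.4 CPM in ipsilateral cortex, against 7.75, 5.26 and 5.26 CPM in contralateral cortex. At 24 h it had 11.8, 11.6 and 11.5 CPM in ipsilateral cortex, against 5.92, 6.58 and 6.88 CPM in contralateral cortex. At all 3 times every ipsilateral library was above every contralateral and every sham library, the sham ones holding 6.23, 6.94 and 5.66 CPM. The log2 fold change over contralateral cortex was 0.75 ± 0.16 (SE; adjusted p = 0.0035) at 6 h, 0.90 ± 0.16 (0.00048) at 12 h and 0.84 ± 0.16 (0.00065) at 24 h, and over sham it was 0.88, 0.85 and 0.88. At 3 h the values were 6.95, 8.89 and 6.89 CPM in ipsilateral cortex and 5.55, 5.79 and 6.26 CPM in contralateral cortex, a difference of 0.37 ± 0.16 that did not pass the test (adjusted p = 0.41).

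The Rpl12 values rest on 166 to 593 counts a library, few for this family. Rpl12 (chr2:32961559-32965345, plus strand, 1242 bp of exon) shares exonic sequence with Lrsam1 on the opposite strand, holds 1 small nucleolar RNA gene and has 6 near-identical pseudogenes. Lrsam1, a ubiquitin ligase gene, had log2 fold changes on the other side of 0: -0.24 at 6 h, -0.27 at 12 h and -0.28 at 24 h, none past the test. The 6 h call of Rpl12 over contralateral cortex was lost without ipsilateral 6 h replicate 2 (adjusted p = 0.057) and without all libraries of surgery day 2 (0.151) or 3 (0.0721), and the 12 h call without day 3 (0.0634). Over sham the 6 h call was lost without day 2 (0.075) and the 12 h call without day 3 (0.0879). The 24 h calls held in all 44 alternatives over contralateral cortex and all 43 over sham.

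The other stalk proteins did not pass the test against contralateral cortex at any time. Rplp0, the scaffold of the stalk, had 164, 163 and 126 CPM in ipsilateral cortex at 24 h, against 124, 131 and 122 CPM in contralateral cortex and 112, 120 and 117 CPM in sham cortex. All 3 ipsilateral values were above the sham ones but not above all contralateral ones. Over sham it rose by 0.38 ± 0.13 (adjusted p = 0.041), a call lost in 16 of 43 alternatives, among them leaving out ipsilateral 24 h replicate 1 (0.154) or 2 (0.155) or any sham library (0.0854 to 0.14); over contralateral cortex the difference was 0.26 (adjusted p = 0.17). Rplp1 had log2 fold changes over contralateral cortex of -0.15 at 6 h, -0.21 at 12 h and -0.14 at 24 h, and Rplp2 of -0.15, -0.01 and 0.06, none past the test. Rplp1 was called lower with GC correction at 12 h (-0.30, adjusted p = 0.031) and with length correction at 24 h (-0.32, 0.045), and over sham at 24 h with either correction (0.023 and 0.037).

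Rpl18, a large subunit protein, was the lowest member and passed the test at 24 h alone. It had 6.65, 6.42 and 5.59 CPM in ipsilateral cortex at 24 h, against 4.37, 4.21 and 4.46 CPM in contralateral cortex and 4.42, 5.01 and 4.17 CPM in sham cortex. The ipsilateral libraries were above all of the others, and the log2 fold change was 0.51 ± 0.16 over contralateral cortex (adjusted p = 0.026) and 0.45 ± 0.16 over sham (0.044). Its exons overlap Sphk2, a sphingosine kinase gene on the opposite strand, which had a log2 fold change over contralateral cortex of 0.55 (adjusted p = 0.0071) at 6 h and of 0.06 at 24 h. The Rpl18 call over contralateral cortex was lost in 14 of 44 alternatives, including the omission of ipsilateral 24 h replicate 1 (0.0911) or 2 (0.0765), of any contralateral 24 h library (0.052 to 0.0874), and both GC and length corrections; the call over sham was lost in 25 of 43.

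Rps21, a small subunit protein, was the member that fell. At 24 h it had 125, 126 and 106 CPM in ipsilateral cortex, against 147, 169 and 148 CPM in contralateral cortex and 161, 156 and 146 CPM in sham cortex, and the ipsilateral values lay below all of the others. The log2 fold change was -0.38 ± 0.10 over contralateral cortex (adjusted p = 0.0069) and -0.37 ± 0.10 over sham (0.0066). At 6 h it had 138, 123 and 149 CPM in ipsilateral cortex, against 173, 163 and 169 CPM in contralateral cortex, again with no overlap. That difference of -0.30 ± 0.10 had an adjusted p of 0.051. It was 0.047 with the surgery day as a block, which brought the members called at 6 h to 2, and 0.055 with a block for each day within each time. With the surgery day block and a length correction the 6 h difference was -0.164 (adjusted p = 0.381). With that block and a GC correction it was -0.357 (0.00735). The 24 h call over contralateral cortex was lost without ipsilateral 24 h replicate 3 (0.054) or contralateral 24 h replicate 2 (0.0513), without surgery day 2 (0.141) or 3 (0.115) and with library totals in place of TMM (0.0698). The call over sham was lost without ipsilateral 24 h replicate 3 (0.0573), without day 2 (0.0863) or 3 (0.105) and with library totals (0.0525).

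**Figure D3:**
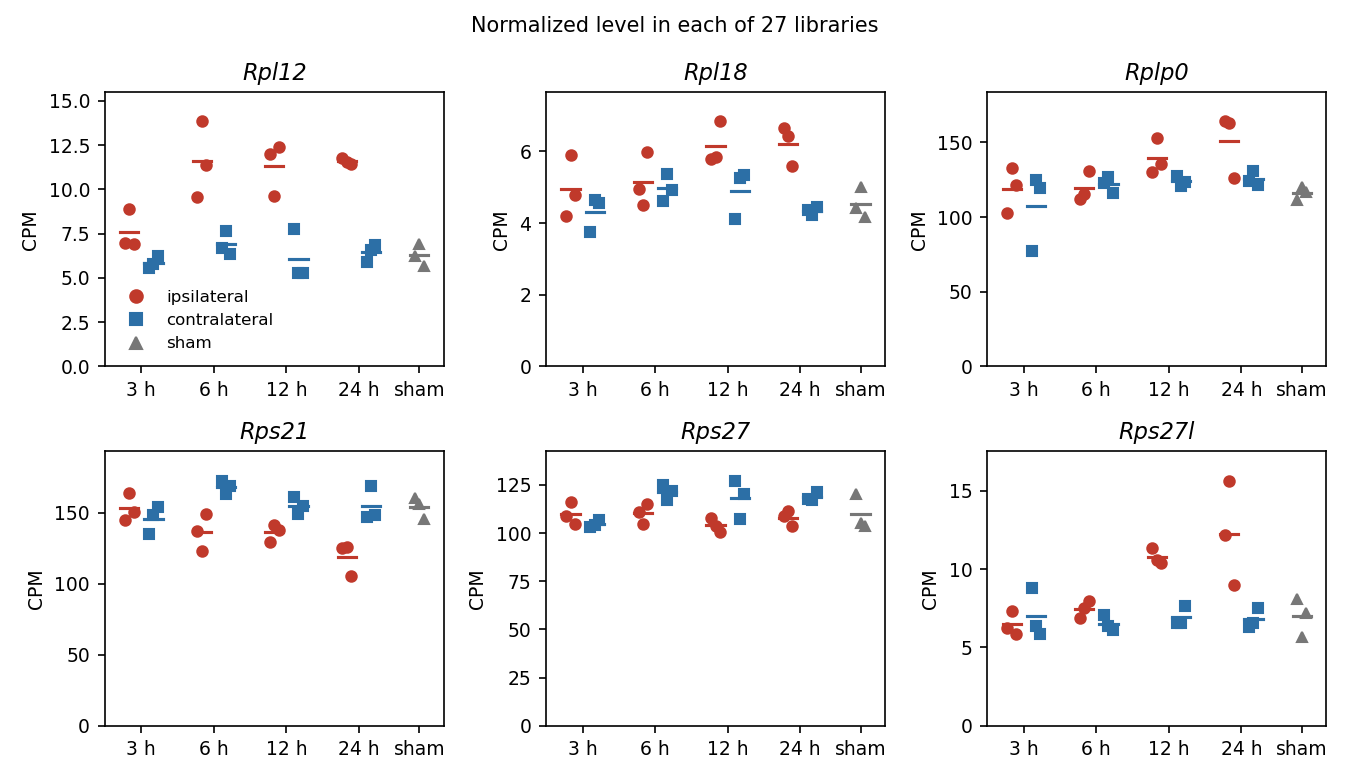
CPM of Rpl12, Rpl18, Rplp0, Rps21, Rps27 and Rps27l in each of 27 libraries (points) with group means (bars). Ipsilateral Rpl12 lies at 9.57 to 13.8 CPM from 6 h on, above all contralateral and sham libraries. Ipsilateral Rps27 lies below contralateral Rps27 at 24 h, a difference that did not pass the test, and Rps27l rises at 12 and 24 h.

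Rpl5 and Rpl11, which bind Mdm2 together with 5S ribosomal RNA, were not called at any time. At 24 h Rpl5 had 116, 112 and 103 CPM in ipsilateral cortex, against 110, 97.8 and 92.1 CPM in contralateral cortex, and Rpl11 had 98.8, 105 and 80.7 CPM in ipsilateral cortex, against 94.8, 92.1 and 89.1 CPM in contralateral cortex. Both pairs of groups overlapped, with log2 fold changes of 0.14 and 0.04. Rps6, the substrate of the S6 kinases that is used as a readout of mTOR activity through its phosphorylation, had 105, 101 and 80.3 CPM in ipsilateral cortex at 24 h, against 91.2, 89.4 and 87.2 CPM in contralateral cortex, an overlap with a difference of 0.10 (95% interval -0.16 to 0.35). Rpl3, at the peptidyl transferase centre, had 294, 321 and 285 CPM in ipsilateral cortex at 24 h, against 355, 368 and 337 CPM in contralateral cortex; the groups did not overlap, but the difference of -0.24 ± 0.13 did not pass the test (adjusted p = 0.21).

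The other members followed in every comparison were not called either. Rpl22, an RNA-binding protein that ribosomes can lack, had log2 fold changes over contralateral cortex between -0.09 and 0.16 over the 4 times, and Rps27a, made as a fusion with ubiquitin, between -0.20 and 0.03. Rpl13a, which silences inflammatory messages in human monocytes when released from ribosomes, had values between -0.17 and 0.22, and Rpl26, which binds the p53 message in human cells, between -0.10 and 0.27. Of the 8 members at the exit of the peptide tunnel or in contact with it none was called at any time. Of 18 members whose human counterparts are mutated in Diamond-Blackfan anaemia, a failure of red cell formation, Rpl18 at 24 h was the one called. Over contralateral cortex 0.249, 7.99, 12.2 and 19.1% of all genes were called at 3, 6, 12 and 24 h. In the whole family 3 of 74 members were called at 24 h, and the counts of these subsets are not read as particular to them. Rps16, singled out after its values were seen, had the largest standard error (0.22) and a 12 h difference of 0.53 that did not pass the test (adjusted p = 0.11).

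Against sham cortex no member was called in ipsilateral cortex at 3 h (0.243% of all genes called; no member had an unadjusted p under 0.05 and DESeq2 called none), and Rpl12 rose at 6 h (6.11% called, 5.03% rose) and at 12 h (10.3% called, 6.58% rose). At 24 h Rpl12, Rpl18 and Rplp0 rose and Rps21 fell, where 22.2% of all genes were called, 11.3% rose and 10.9% fell. The medians over the 74 genes were -0.005, -0.05, -0.03 and -0.02 at 3, 6, 12 and 24 h. In contralateral cortex none of 74 members was called against sham at 3 h (0.0111% of all genes), 6 h (0.0332%), 12 h (0.238%) or 24 h (0.111%) by edgeR or DESeq2; at an unadjusted p under 0.05 there were 8, 1, 0 and 1. These comparisons share the sham libraries, and the ipsilateral ones share libraries with the comparison between hemispheres. A test of whether the difference between hemispheres varied over the 4 times called none of 74 members (1.34% of all genes; smallest adjusted p 0.19; 3 members with an unadjusted p under 0.05; DESeq2 none).

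Within the family, shorter genes had the lower log2 fold changes from 6 h on, a trend that at 6 and 12 h did not remain after a correction for length. Exonic length ran from 383 to 5395 bp with a median of 992 bp, against 3007 bp over the tested genes with a length. Spearman's rho across the 74 genes between length and log2 fold change over contralateral cortex was -0.22, 0.42, 0.28 and 0.35 at 3, 6, 12 and 24 h; the genes share libraries, depth and base composition, and no p is given. After the length correction rho was -0.43, -0.18, -0.05 and 0.42. The 25 shortest members (up to 830 bp) had a median of -0.09 at 24 h and the 25 longest (from 1163 bp) one of 0.01. All 899 tested genes in the length range of those 25 shortest had a median of 0.14 at 24 h, and -0.14 at 6 h. At 6 h the 25 shortest members had a median of -0.12 and the 25 longest one of -0.06. With a correction for transcript length fitted to each library, 1 member rose and 10 fell at 24 h in place of 2 and 1, and with a correction for GC content 1 rose and 8 fell. Over all genes 7.33% rose and 17.7% fell with the length correction, and 7.94% rose and 21.3% fell with the GC correction. The members' median became -0.18 and -0.17, where that of all genes moved to -0.11 under each. Rpl12 remained the one that rose, and Rps21, Rpl3, Rpl35a, Rpl38, Rpl39, Rps23, Rps27 and Rps29 fell under both.

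**Figure D4:**
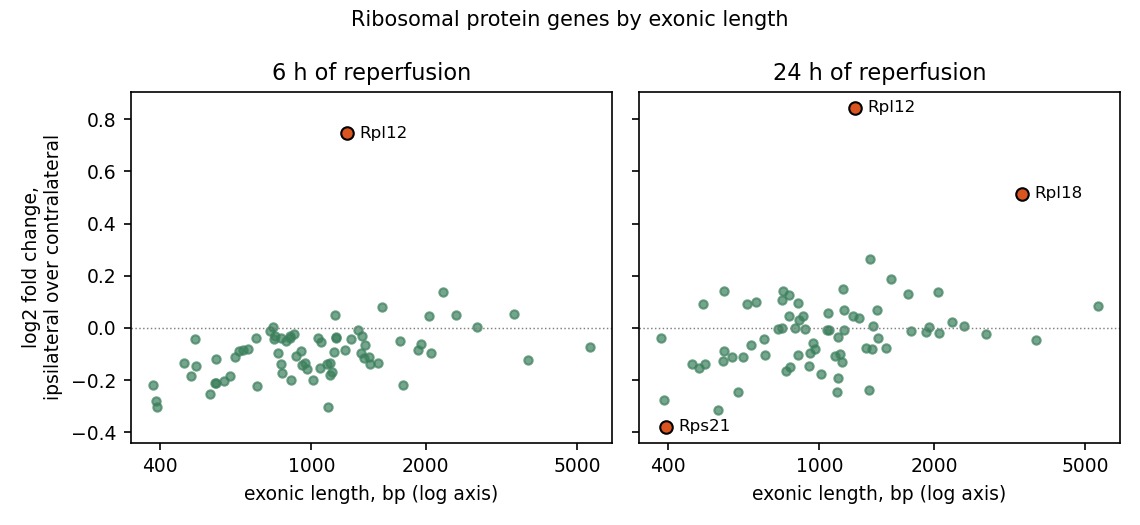
Log2 fold change, ipsilateral over contralateral cortex, of the 74 genes at 6 h and 24 h against exonic length (log axis); orange points have an adjusted p under 0.05. Most members lie below 0 at 6 h, with a median of -0.12 for the 25 shortest and -0.06 for the 25 longest. Spearman's rho is 0.42 at 6 h and 0.35 at 24 h.

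These 4 core proteins outside the naming pattern were not called at any time. Rpsa, Fau, Rps3a1 and Gnb2l1 had log2 fold changes over contralateral cortex of 0.01 to 0.17 at 24 h. Among the 7 paralogs Rps27l, which differs from Rps27 by a few residues and is induced by p53 in human cells, rose at 12 h and 24 h. At 12 h it had 11.3, 10.6 and 10.4 CPM in ipsilateral cortex, against 6.58, 6.58 and 7.625 CPM in contralateral cortex. At 24 h it had 12.2, 15.7 and 8.97 CPM in ipsilateral cortex, against 6.33, 6.53 and 7.55 CPM in contralateral cortex. The groups did not overlap at either time, and the log2 fold change was 0.64 ± 0.18 (adjusted p = 0.016) at 12 h and 0.85 ± 0.17 (0.0012) at 24 h. The 12 h call was lost without ipsilateral 12 h replicate 1 (0.0747) or contralateral 12 h replicate 1 (0.0704) or 2 (0.0659).

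Rps27 itself did not pass the test, with -0.18 ± 0.09 at 12 h (adjusted p = 0.18) and -0.14 ± 0.09 at 24 h (0.29). Its values at 24 h were 109, 111 and 104 CPM in ipsilateral cortex, against 118, 117 and 121 CPM in contralateral cortex, with no overlap. The CPM of Rps27l was 11.2, 14.1 and 8.66% of that of Rps27 in ipsilateral cortex at 24 h, against 5.37, 5.57 and 6.22% in contralateral cortex and 6.74, 5.36 and 6.96% in sham cortex. Rpl3l, a muscle paralog of Rpl3, was also called higher at 24 h, on 18, 10 and 19 counts in ipsilateral cortex and 4, 0 and 3 counts in contralateral cortex (log2 fold change 2.81 ± 0.75, which at such counts depends on the prior; adjusted p = 0.0088, or 0.0524 without contralateral 24 h replicate 2). Rpl22l1, Rpl7l1, Rpl36al, Rps4l and Rps27rt were not called at any time.

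Genes that act around the ribosomal proteins were counted in the same way. Of 62 tested genes of ribosome assembly, the nucleolar and cytoplasmic factors that build subunits from these proteins, 0 were called over contralateral cortex at 3 h, 4 rose at 6 h (5.85% of all genes rose), 16 rose at 12 h (7.94%), and 23 rose (9.74%) and 1, Nop10, fell (9.36%) at 24 h. Their median log2 fold change was 0.05, 0.14, 0.28 and 0.31 over the 4 times, beside the members' medians above. Ddx21, a nucleolar helicase, averaged 41.9 ± 0.58 CPM in ipsilateral cortex at 24 h and 22.9 ± 4.3 CPM in contralateral cortex (SD, n = 3 each), with a log2 fold change of 0.87 ± 0.12 (edgeR adjusted p = 2.6e-05). Gnl3 (nucleostemin), a nucleolar GTP-binding protein, rose by 0.69 at 6 h, 0.69 at 12 h and 0.83 at 24 h, and Nop58, a core protein of box C/D small nucleolar ribonucleoproteins, by 0.60, 0.77 and 0.71. Wdr43 and Riok1 completed the 4 of 6 h. Of 76 mitochondrial ribosomal protein genes 2 rose and 4 fell at 24 h, with a median of -0.11.

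**Figure D5:**
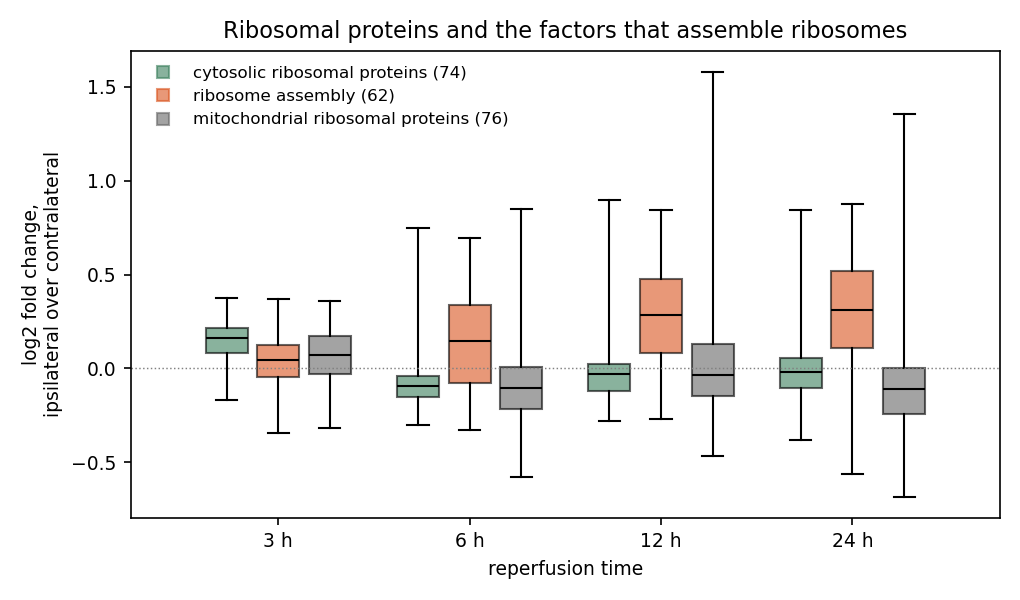
Log2 fold change, ipsilateral over contralateral cortex, of the 74 cytosolic ribosomal protein genes, 62 ribosome assembly genes and 76 mitochondrial ribosomal protein genes by reperfusion time (box: quartiles and median; whiskers: lowest and highest gene). The assembly genes have medians of 0.05, 0.14, 0.28 and 0.31, against -0.03 and -0.02 for the ribosomal proteins at 12 and 24 h.

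The assembly counts moved when single libraries were left out, and so did the calls over all genes. Over all genes the 1445 calls at 6 h became 516 without ipsilateral 6 h replicate 2. They became 823 without contralateral 6 h replicate 2 and 2206 without contralateral 3 h replicate 1. The 2214 at 12 h became 889 without ipsilateral 12 h replicate 1, and the 3455 at 24 h became 2231 without contralateral 24 h replicate 1. The assembly counts were as follows. At 6 h they were 0 without ipsilateral 6 h replicate 2 or contralateral 6 h replicate 2, 1 without ipsilateral 6 h replicate 1 or contralateral 6 h replicate 3, 2 without contralateral 6 h replicate 1 or sham replicate 2, 7 without ipsilateral 6 h replicate 3 and 15 without contralateral 3 h replicate 1. At 12 h they were 7 without ipsilateral 12 h replicate 1 or contralateral 12 h replicate 1 and 9 without ipsilateral 12 h replicate 3. At 24 h they were 15 without ipsilateral 24 h replicate 2 or 3, 12 without contralateral 24 h replicate 1 and 13 without contralateral 24 h replicate 2.

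For the lists that follow, 5.85, 7.94 and 9.74% of all genes rose at 6, 12 and 24 h, and 9.36% fell at 24 h. Of 14 genes of RNA polymerase I, which transcribes the large ribosomal RNA precursor, 3 rose at 6 h, 1 at 12 h and 3 at 24 h. Twistnb, a subunit of the enzyme, rose by 0.87, 1.07 and 0.67. Of 16 translation factors with TOP messages, Pabpc1, the poly(A)-binding protein, rose by 0.55 at 24 h (adjusted p = 0.0024) and Tpt1 by 0.27 (0.042), and none was called before. Gas5 and Snhg12, noncoding hosts of small nucleolar RNAs with TOP tracts, rose at 12 h by 0.51 and 0.59, and Gas5 at 24 h by 0.62. Among 19 genes of mTOR and TOP control, 3 rose (9.74% of all genes) and 2 fell (9.36%) at 24 h. Eif4ebp1, the repressor of cap binding, rose by 1.52, Myc by 1.43 and Larp4 by 0.44, while Mtor fell by 0.33 and Tsc2 by 0.26. Larp1 rose by 0.31 at 12 h (adjusted p = 0.048) and differed by 0.20 at 24 h, which did not pass.

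Of 9 genes of the p53 response to nucleolar stress 1 rose at 6 h (5.85% of all genes), 6 at 12 h (7.94%) and 5 at 24 h (9.74%). Sesn2, an inhibitor of mTOR complex 1, averaged 40.6 ± 11 CPM in ipsilateral cortex at 12 h and 8.78 ± 0.16 CPM in contralateral cortex (SD, n = 3 each; log2 fold change 2.21, edgeR adjusted p = 1.3e-05). Mdm2 rose by 0.78 at 12 h and 0.72 at 24 h, and Trp53 by 0.67 and 0.60. Of 18 genes of ribosome quality control 4 rose (9.74% of all genes) and 1 fell (9.36%) at 24 h. Hbs1l, a ribosome rescue factor, rose by 0.49 and Zak, a kinase that senses collided ribosomes, by 0.73. Cell type markers moved over the same hours. At 24 h, where 9.74% of all genes rose and 9.36% fell, 7 of 12 neuronal markers fell. Their sum was 3591 to 4054 CPM in ipsilateral cortex and 5433 to 5764 CPM in contralateral cortex. Of 10 endothelial markers 5 rose and 1 fell, but their sums overlapped (333.2, 204.8 and 147.9 CPM ipsilateral, 181.3, 183.5 and 153.5 CPM contralateral). Of 11 markers of infiltrating myeloid cells 4 rose, with sums of 12.1 to 41.9 CPM in ipsilateral cortex and 7.26 to 11.5 CPM in contralateral cortex. Sums of astrocyte markers (4708 to 6437 CPM ipsilateral, 4447 to 5225 CPM contralateral) and of microglial markers (193 to 330 and 167 to 276 CPM) overlapped. The part of cell types in the changes of the ribosomal genes was not tested.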

How the data were processed

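Raw counts per gene, deposited by the authors as a single table, were used as they stand; per the submitters' processing notes the tools were STAR 2.5.0a, featureCounts 1.4.3-p1 and edgeR, with mouse build mm10. The strand setting and the treatment of reads with several matches are not stated there. The RNA was depleted of ribosomal RNA, per the labels' protocols.

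The filterByExpr function (at least 10 counts, and 15 in total) kept 18087 of 22340 genes; 588 had no count, and the genes left out held 0.0116% of counts. All 27 libraries entered 1 edgeR 4.0.16 quasi-likelihood model (R 4.3.3, TMM normalization, 1 mean per group, 18 residual degrees of freedom), with Benjamini-Hochberg adjustment over all genes and a threshold of 0.05. DESeq2 1.42.0 was an alternative, as were other scalings and filters, GC content and length corrections, the replicate block and leaving out each library.

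The ribosomal genes and all lists were chosen with earlier results of these data known. The genes named are the called members with the largest changes, a set of members followed throughout, and up to 4 genes of smallest p per other list. One listed gene is not reported here. Replicate numbers mark days of surgery, per the series' design text, and so pair the samples; the mean correlation of deviations was 0.0475 over 108 pairs of same-numbered libraries and -0.0237 over 216 other pairs. P-values measure the spread between libraries of separate surgery days. Lengths, overlaps and copies (blastn 2.17.0+) come from GENCODE M21, which matched 22172 of 22340 symbols. No 2 libraries were identical.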

Additional observations from a re-analysis of the deposited data

Results flagged for a closer look

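By edgeR's quasi-likelihood test of the ipsilateral to contralateral difference over the 4 times, 1.34% of all genes were called. No ribosomal protein gene was called. The 5 called genes of the lists set beside them are described below, and their number is not read as an excess over that share. Whether the lists differ from the members in this was not tested. Mycn, which drives ribosome production, had log2 fold changes of 1.20, 1.70, 0.67 and -0.47 at 3, 6, 12 and 24 h (adjusted p = 0.00482). Sesn2 had 0.19, 0.97, 2.21 and 1.91 over the same times (adjusted p = 0.0145). Mrps6, a mitochondrial ribosomal protein, had 0.31, 0.85, 1.58 and 1.35 (adjusted p = 0.00834). Gfap, the astrocyte filament, had 0.34, 0.43, 0.97 and 2.29 (adjusted p = 0.0254), and Nefl, the neuronal filament, had 0.16, 0.03, -0.15 and -0.61 (adjusted p = 0.0447).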

How the results depend on the processing

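No called fold change of a named gene changed sign under any alternative run. The members' median, which was below 0 at 12 and 24 h, was above 0 in some: at 12 h with library totals and without replicate number 3 (0.00286), and at 24 h with library totals (0.0457), with at least 1 CPM in 3 libraries (0.0123), without ipsilateral 24 h replicate 3 (0.0508) and without number 3 (0.0423). No ribosomal protein gene was called at 3 h in ipsilateral cortex, in contralateral cortex against sham, or in the test over times under any alternative run. The cause of each change below was not tested.

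Against contralateral cortex the 1 member called at 6 h became 2 with at least 1 CPM in 3 libraries, with the replicate block, in the groups compared alone, by DESeq2 and without contralateral 3 h and ipsilateral 24 h replicate 1 together, and 3 with GC correction, with or without the block. The share of all genes called was 9.75, 9.28, 14.3, 10.1 and 13.4% in that order, against 7.99% before. It was 12.4% with GC correction and 13.6% with the block added. The 1 at 12 h became 5 with GC correction, 6 with the block added, 3 without that pair of libraries and 2 in the groups compared alone. Here the share of all genes called was 18.2, 19.8, 19.0 and 15.8% in that order, against 12.2% before. The 3 at 24 h became 9 with GC correction, 11 with the block added, 11 with length correction and 14 with the block added, where the share of all genes called was 29.2, 30.6, 25.1 and 27.4%, against 19.1% before. Against sham the 1 at 6 h became 2 with GC correction (12.4% of all genes called) and 3 with the block added (14.2%), against 6.11% before. The 1 at 12 h became 2 with GC correction or by DESeq2, 3 with GC correction and block, and 4 without that pair or in the groups compared alone. The share of all genes called was then 15.2, 12.7, 16.4, 17.1 and 17.9% in that order, against 10.3% before. The 4 at 24 h became 1 with library totals, 9 with GC correction, 10 with the block added, 8 with length correction, 12 with the block added and 7 without that pair; the share of all genes called was 17.8, 31.0, 32.2, 27.2, 29.7 and 24.3% in that order, against 22.2% before. The replicate block alone changed no other count of members by over 1.5 times; a block within each time could not be run against sham.

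The 4 assembly genes called at 6 h became 2 with no filter, 7 with GC correction and block, 15 without that pair, 12 in the groups compared alone and 8 by DESeq2. The share of all genes called was 5.96, 13.6, 13.4, 14.3 and 10.1% in that order, against 7.99% before. The 16 at 12 h became 10 with length correction (14.2% of all genes called) and 28 without that pair (19.0%), against 12.2% before. The 24 at 24 h became 14 in the groups compared alone (14.1%, against 19.1% before). The members' median became -0.162 at 6 h with GC correction and -0.162 with the block added. At 12 h it became 0.0534 with library totals, -0.104 with GC correction and -0.106 with the block added. At 24 h it became -0.167 with GC correction, -0.166 with the block added, -0.180 with length correction and -0.182 with the block added.

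Leaving out 1 library or 1 replicate number gave 0 to 3 members at 6 h, 0 to 2 at 12 h and 1 to 5 at 24 h against contralateral cortex, and 0 to 1, 0 to 2 and 1 to 7 against sham. At 6 h the 0 came without ipsilateral 6 h replicate 2 and without number 2 or 3, the 3 without ipsilateral 6 h replicate 3, and 2 without contralateral 3 h replicate 1 or 3, contralateral 12 h replicate 1 or ipsilateral 24 h replicate 1 or 3. Without contralateral 3 h replicate 1 there were 2 at 12 h and 5 at 24 h, and against sham 2 and 7; without contralateral 24 h replicate 2 or number 2 or 3 there was 1 at 24 h, and without number 3 there was 0 at 12 h. Against sham there were 2 at 12 h without ipsilateral 12 h replicate 3, and 2 at 24 h without ipsilateral 12 h replicate 1, ipsilateral 24 h replicate 2 or any sham library. Calls over all genes against contralateral cortex moved too. The 1445 at 6 h became 516 without ipsilateral 6 h replicate 2 and 1643 without ipsilateral 6 h replicate 3. The 3455 at 24 h became 4553 without contralateral 3 h replicate 1 and 2356 without contralateral 24 h replicate 2. Assembly genes ranged over 0 to 15 at 6 h, 4 to 24 at 12 h and 5 to 30 at 24 h. The members' median ranged from 0.0151 to 0.289 at 3 h, -0.162 to -0.0448 at 6 h, -0.0964 to 0.00286 at 12 h and -0.0825 to 0.0508 at 24 h. With 3 libraries a group, differences under about 0.26 log2 units lay within a typical member's 95% interval.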
